A study of Mus musculus with 12 samples.

Results

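Nuclear pores and the receptors that pass through them were described here at the level of their transcripts in single mouse blastomeres. The genes were chosen by name: every probe of the array whose gene symbol marks it as a nucleoporin (Nup), a karyopherin (Kpna, Kpnb), an importin (Ipo), a transportin (Tnpo) or an exportin (Xpo) with a number, together with Ran and Rangap1. This rule took 93 of 41174 probes and 42 of 22410 gene names, of which 20 were nucleoporins, 15 importins and transportins, 5 exportins, and the remaining 2 Ran and Rangap1. Members that the array lists under older names, such as the probes that the file calls Ranbp5, fell outside the rule. No probe carried a name, synonym or accession of Kpna7, the importin alpha known from mouse oocytes and early embryos, so that gene was not analysed here.

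The samples were the single cells of 2-cell embryos of CF-1 mice, bred naturally and collected from the oviduct about 36 h post coitus. Each of 6 embryos was split by hand into its 2 cells, and the RNA of each cell was amplified in a pair of rounds and hybridised to 1 array, which gave 12 arrays. Experiment 2 held the embryos called pairs D, G and H, and experiment 1 held pairs D, I and L, which makes 3 embryos and 6 cells on either side. The labels name no treatment and give the same strain and age for both experiments, and they say neither what differed between the experiments nor what the cell numbers 1 and 2 stand for. Pair D of experiment 2 and pair D of experiment 1 were different embryos. A p between experiments or embryos measures the spread between these cells, and twin cells are not independent of each other.

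The nuclear pore complex is a ring of nucleoporins set in the nuclear envelope: a Y-shaped scaffold complex and an inner ring hold a central channel of flexible, phenylalanine- and glycine-rich proteins, with filaments on the cytoplasmic face and a basket on the nuclear face. Importins carry proteins inwards, and exportins carry proteins and RNA outwards. The small GTPase Ran gives the direction, because its GTP-bound form, made in the nucleus, releases import cargo and loads export cargo, and Rangap1 triggers GTP hydrolysis in the cytoplasm. Classical import uses an importin alpha, which reads the nuclear localisation signal, bound to Kpnb1 (importin beta). In the mouse embryo the 2-cell stage is when the main wave of transcription from the new genome begins, while oocyte transcripts are being degraded.

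Levels are log2 of the processed signal of a probe divided by the 75th percentile of its array, so 0 is the level of that percentile. Signals under a common floor of -4.12 were raised to it. Values of different probes cannot be compared with each other, and every comparison below is of 1 probe between cells. A gene is represented by its tested probe with the highest mean, where a probe was tested if its signal was well above background on at least 6 of the 12 arrays.

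The transcripts of the transport machinery were widely detected. Of the 42 genes, 36 had a tested probe (57 probes in all), and 27 were represented by a probe that was well above background on all 12 arrays. The 6 that were not tested were the scaffold nucleoporins Nup107, Nup43 and Nup188, the Nup210-like gene Nup210l, Ipo9 and the actin exporter Xpo6, whose best probes were well above background on 3 to 5 arrays. Between 54 and 86 of the 93 member probes were well above background in the cells of experiment 2, and between 38 and 57 in those of experiment 1. These were 58.1 to 92.5% of the member probes in experiment 2 and 40.9 to 61.3% in experiment 1, against 30.9 to 78.7% of all probes in experiment 2 and 21.9 to 41.5% in experiment 1. A member that passed the filter mainly through the brighter arrays of 1 experiment had a low level in the other by that choice, which touches the 9 representative probes not measured on every array.

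The experiments differed in more than the embryos. Experiment 2 was scanned in the green channel (Cy3), experiment 1 carried its signal in the red one (Cy5), and no slide held cells of both, so experiment, dye, scan and slide cannot be told apart. The summed markers of stroma, blood and oviduct moved with the experiment. The summed level of 8 stromal and muscle transcripts was 0.459 to 0.951 in experiment 2 and 12.7 to 77.7 in experiment 1, on the linear scale of the scaled signal, and 8 of 8 were lower in experiment 2. The sums of the 6 blood and macrophage transcripts on the array were 0.385 to 0.690 in experiment 2 and 5.99 to 261 in experiment 1, and 2 of the 5 tested, Lyz2 and Apoe, were lower. The 8 oviduct epithelium transcripts summed to 0.459 to 1.39 in experiment 2 and 4.28 to 24.1 in experiment 1, and 3 of the 7 tested were lower. Epcam and Pax8 of that list differed by 0.62 and 0.54 log2 units, the other way, without passing. Oocyte transcripts summed to 55.1 to 78.4 in experiment 2 and 48.5 to 89.2 in experiment 1, and 1 of the 8 tested, Zar1, was lower. Transcripts typical of the 2-cell stage summed to 6.75 to 12.7 in experiment 2 and 3.30 to 5.25 in experiment 1. Of the 5 tested, 3 were higher (Tcstv1, Tcstv3 and Tdpoz1). At the adjusted threshold of 0.05 used for these calls, 4.28% of all tested genes were higher and 4.85% lower. The 8 cumulus and granulosa transcripts summed to 0.468 to 1.19 in experiment 2 and 0.459 to 0.975 in experiment 1, with 2 to 6 of them well above background in a cell of experiment 2 and 0 to 4 in one of experiment 1. Cyp19a1 was well above background on 11 of the 12 arrays, Ptx3 on 8, Amh on 6, and Fshr and Tnfaip6 on none. The part of these differences in the results below was not tested.

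Between experiments, 5 member genes were higher in experiment 2 (Nup35, Ipo7, Nup133, Kpna2 and Nup88) and 2 were lower (Nup98 and Ipo13), while 29 did not pass an adjusted p of 0.05 in limma with the embryo as a random block. This was 7 of 36 tested members (19.4%), against 9.13% of all 11936 tested genes. By probes it was 8 of 57 against 8.1% of 16694. By direction, and by genes, it was 5 of 36 (13.9%) against 4.28% for genes higher in experiment 2, and 2 of 36 (5.56%) against 4.85% for genes lower. Among genes measured on all 12 arrays, 5 of 27 members (18.5%) passed, against 16.1% of 4758 genes. The share of members thus stood near the background. By direction it was 3 of 27 (11.1%) against 7.99% higher, and 2 of 27 (7.41%) against 8.11% lower. This stricter filter leaves out genes near background in either experiment, among them Nup133 and Ipo7, which had passed. The median difference was 0.44 log2 units over the 36 members and 0.19 over all genes. The groups of 6 cells did not overlap for 8 of 36 members, the 7 that passed and Nup50, against 8.58% of all genes.

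**Figure D1:**
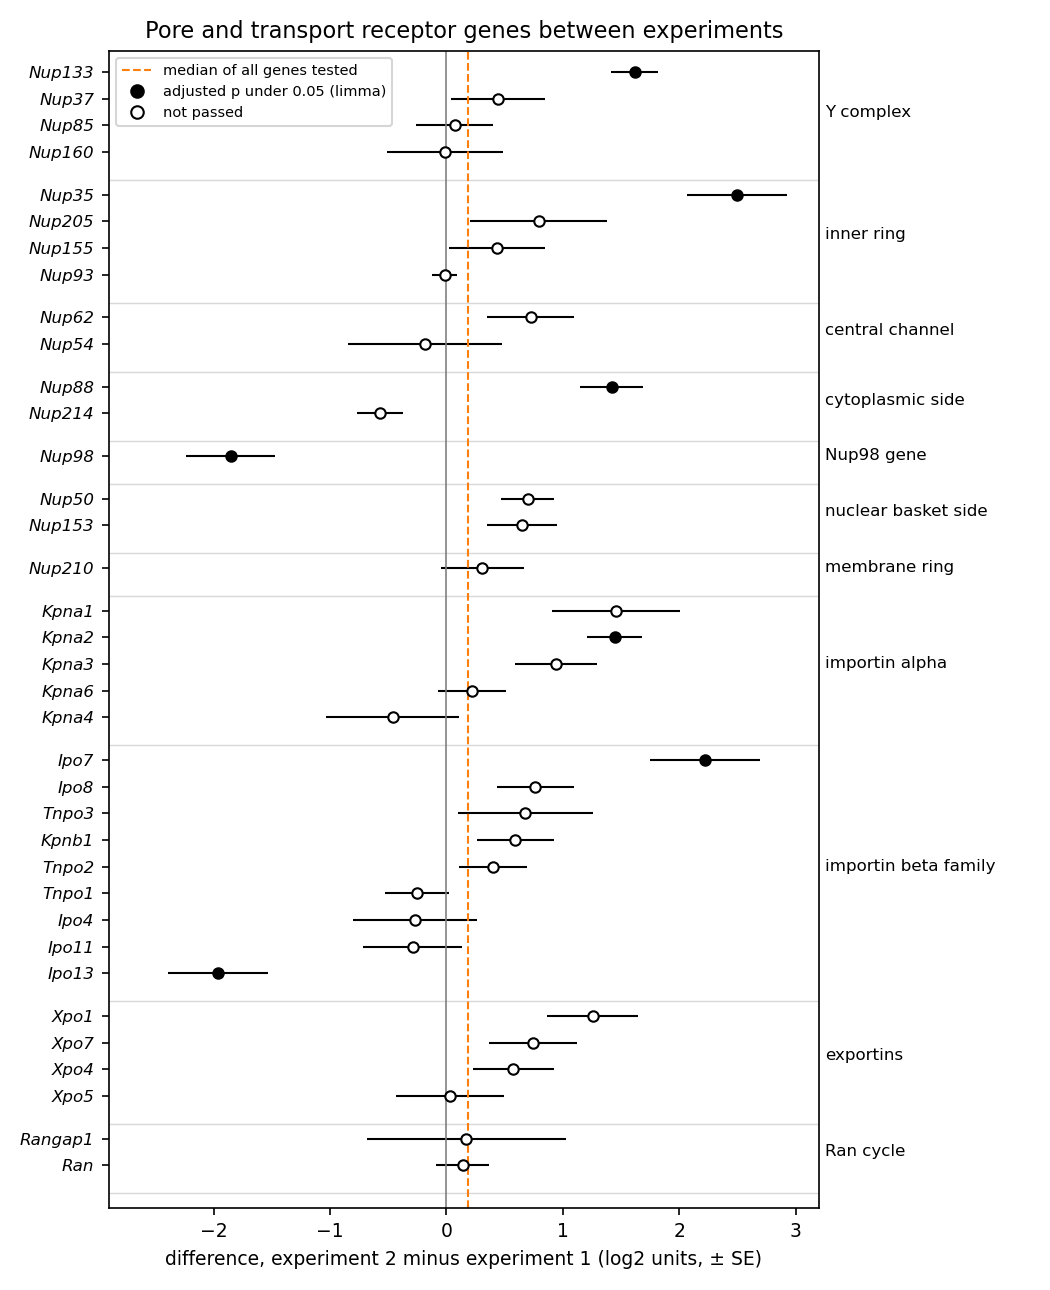
Difference between experiments (experiment 2 minus experiment 1, log2 units, points with SE) of the 36 tested member genes, grouped by role. Filled points passed an adjusted p of 0.05 in limma: 5 lie right of 0, led by Nup35 at 2.49, and 2 lie left of 0, Nup98 at -1.85 and Ipo13 at -1.96. The dashed line is the median of all tested genes, 0.19.

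The scaffold of the pore gave 2 of the genes that were higher in experiment 2. Nup133 is a subunit of the Y complex that tethers it in the ring. In experiment 2, Nup133 stood at -2.50 and -2.20 in cells 2 and 1 of pair D, at -2.37 and -3.03 in the twins of pair G and at -2.57 and -2.06 in those of pair H, against -3.84 and -4.12 in cells 2 and 1 of pair D, -4.12 and -4.12 in the twins of pair I and -4.12 and -4.09 in those of pair L in experiment 1. All 6 cells of experiment 2 were above all 6 of experiment 1, where the probe was well above background in 4 cells and at or close to the floor in every cell. The mean was -2.45 ± 0.34 in experiment 2 and -4.07 ± 0.11 in experiment 1 (SD, n = 6 cells each), a difference of 1.62 ± 0.20 log2 units (SE; adjusted p = 0.0009 in limma), or 3.07-fold higher. Because most cells of experiment 1 stood at the floor, the size of this difference is limited by it. It was 0.51 with normexp background correction (adjusted p = 0.417 in limma) and 2.25 with the deposited values (adjusted p = 0.0155). The other tested members of the Y complex, Nup160, Nup85 and Nup37, differed by -0.01, 0.07 and 0.44 log2 units and did not pass.

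Nup35, an inner ring protein that binds the membrane and Nup155, had the largest difference of the 36. In experiment 2, Nup35 stood at 1.05 and 1.22 in cells 2 and 1 of pair D, at 0.80 and 0.69 in the twins of pair G and at 0.027 and 1.26 in those of pair H, against -1.45 and -2.11 in cells 2 and 1 of pair D, -2.39 and -2.58 in the twins of pair I and -0.36 and -1.03 in those of pair L in experiment 1. The groups did not overlap: the lowest cell of experiment 2 was cell 2 of pair H, and the highest of experiment 1 was cell 2 of pair L. The mean was 0.84 ± 0.46 in experiment 2 and -1.65 ± 0.86 in experiment 1 (SD, n = 6 cells each), a difference of 2.49 ± 0.43 log2 units (SE; adjusted p = 0.0048 in limma), or 5.64-fold higher. The inner ring members Nup205, Nup155 and Nup93 differed by 0.79, 0.43 and -0.01 log2 units without passing. A second tested Nup155 probe, with 10 cells at the floor, differed by -0.33 and did not pass. The membrane ring protein Nup210 differed by 0.31.

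On the cytoplasmic face, Nup88 was higher in experiment 2 and its partner Nup214 did not pass. Nup88 anchors Nup214, a phenylalanine- and glycine-rich protein that binds the exportin Xpo1. In experiment 2, Nup88 stood at -0.013 and 0.30 in cells 2 and 1 of pair D, at -0.62 and -0.23 in the twins of pair G and at 0.06 and 0.29 in those of pair H, against -1.69 and -2.02 in cells 2 and 1 of pair D, -1.09 and -0.84 in the twins of pair I and -1.22 and -1.88 in those of pair L in experiment 1. The groups did not overlap. The mean was -0.036 ± 0.35 in experiment 2 and -1.46 ± 0.47 in experiment 1 (SD, n = 6 cells each), a difference of 1.42 ± 0.27 log2 units (SE; adjusted p = 0.00781 in limma), or 2.68-fold higher. A second Nup88 probe, near the floor, differed by 0.49 log2 units and did not pass (adjusted p = 0.551 in limma). In experiment 2, Nup214 stood at 3.99 and 3.54 in cells 2 and 1 of pair D, at 3.44 and 3.72 in the twins of pair G and at 4.25 and 3.94 in those of pair H, against 4.02 and 4.30 in cells 2 and 1 of pair D, 4.65 and 4.30 in the twins of pair I and 4.50 and 4.57 in those of pair L in experiment 1. The cells of the experiments overlapped, and the difference of -0.57 ± 0.20 log2 units did not pass (adjusted p = 0.109 in limma). With quantile normalization between arrays it was 0.056, of the opposite sign.

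Of the basket proteins, Nup50 helps importin alpha let go of its cargo and Nup153 docks importins and anchors the basket. In experiment 2, Nup50 stood at -0.37 and -0.22 in cells 2 and 1 of pair D, at -0.19 and -0.79 in the twins of pair G and at -0.89 and -0.89 in those of pair H, against -0.96 and -1.22 in cells 2 and 1 of pair D, -1.12 and -1.78 in the twins of pair I and -1.05 and -1.39 in those of pair L in experiment 1. The cells of experiment 2 stood above those of experiment 1 with a gap of 0.068 log2 units. The mean was -0.56 ± 0.33 in experiment 2 and -1.25 ± 0.30 in experiment 1 (SD, n = 6 cells each), and the difference of 0.70 ± 0.23 log2 units did not pass (adjusted p = 0.0955 in limma). It passed with quantile normalization (adjusted p = 0.0208). Other tested Nup50 probes overlapped between experiments and did not pass. They differed by 0.84 and, for a probe with 8 cells at the floor, by -0.47, the opposite sign. Nup153 ranged between -1.53 and 0.19 in experiment 2 (median -0.61) and between -1.50 and -1.0 in experiment 1 (median -1.27), and the difference of 0.65 log2 units did not pass (adjusted p = 0.276 in limma). Its other tested probes differed by 1.12, without overlap, and by -0.35, and did not pass (adjusted p = 0.145 and 0.450 in limma). The central channel proteins Nup62 and Nup54 differed by 0.72 and -0.18 log2 units, also without passing. Other tested Nup54 probes had the opposite sign, 0.60 and 0.19, and did not pass.

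**Figure D2:**
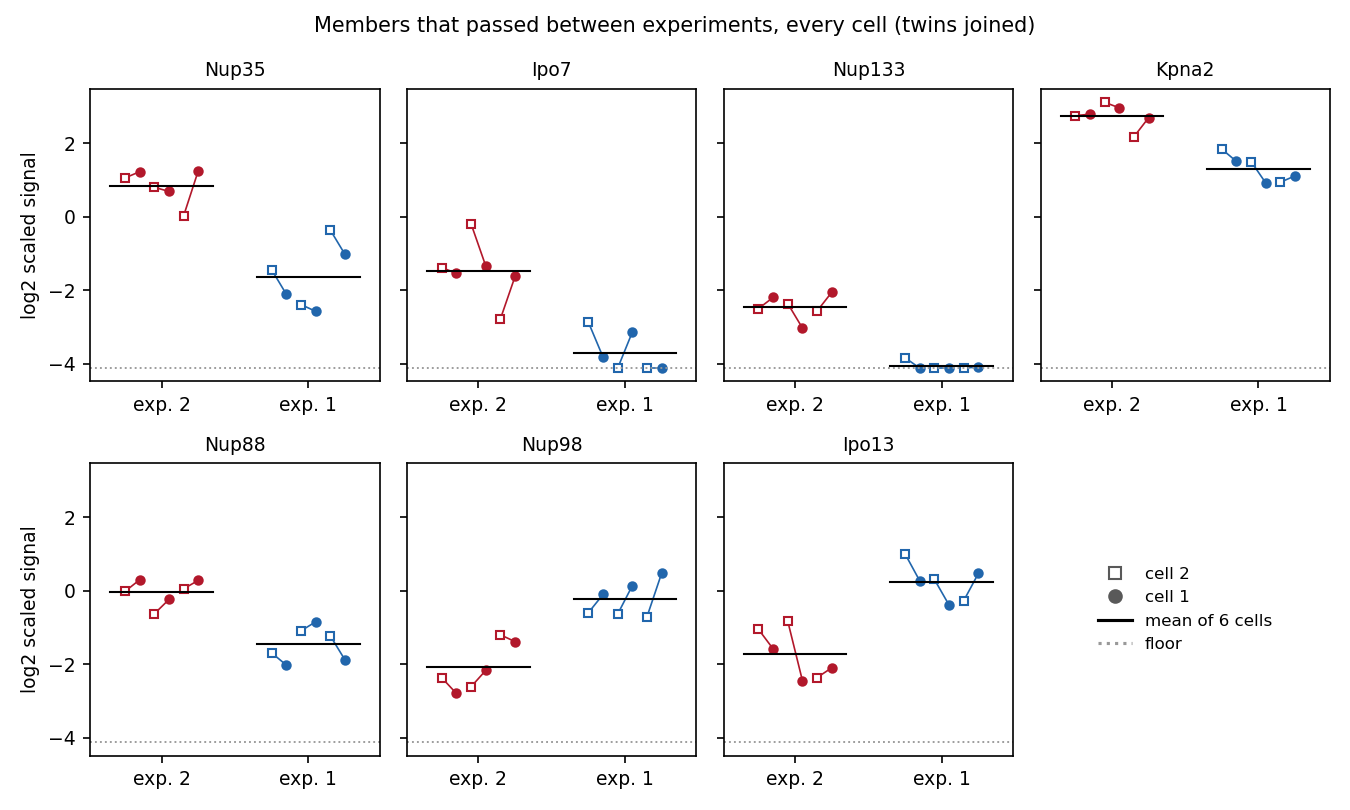
Levels (log2 scaled signal) of the 7 member genes that passed between experiments, in every cell; experiment 2 is on the left of each panel and experiment 1 on the right, twins are joined by a line with cell 2 left of cell 1, bars are means of 6 cells and the dotted line is the floor at -4.12. No gene's groups overlap, and Nup133 stands at or near the floor in all cells of experiment 1.

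Nup98 was lower in experiment 2 by its representative probe, but its probes did not move together. The gene encodes a precursor that cuts itself into Nup98, a mobile channel protein, and Nup96, a subunit of the Y complex. Its representative probe, A_51_P123613, is assigned by the array to the accession BC078630. In experiment 2, Nup98 stood at -2.36 and -2.79 in cells 2 and 1 of pair D, at -2.61 and -2.16 in the twins of pair G and at -1.19 and -1.38 in those of pair H, against -0.59 and -0.10 in cells 2 and 1 of pair D, -0.63 and 0.15 in the twins of pair I and -0.70 and 0.49 in those of pair L in experiment 1. The groups did not overlap. The mean was -2.08 ± 0.66 in experiment 2 and -0.23 ± 0.49 in experiment 1 (SD, n = 6 cells each), a difference of -1.85 ± 0.38 log2 units (SE; adjusted p = 0.0117 in limma), or 3.61-fold lower. The probe A_52_P490272, assigned to the transcript NM_022979, went the other way. In experiment 2, A_52_P490272 stood at -2.76 and -1.94 in cells 2 and 1 of pair D, at -3.00 and -3.01 in the twins of pair G and at -3.12 and -3.61 in those of pair H, against -3.86 and -4.12 in cells 2 and 1 of pair D, -4.12 and -4.12 in the twins of pair I and -4.12 and -4.12 in those of pair L in experiment 1. It was well above background in 6 cells of experiment 2 and 3 of experiment 1, and was higher in experiment 2 by 1.17 ± 0.26 log2 units (adjusted p = 0.018 in limma). It thus passed the filter mainly through experiment 2, and it stood at the floor in 5 cells of experiment 1. The filter and the floor limit what this difference shows. The probe A_52_P170761, assigned to the same transcript, differed by 0.30 ± 0.15 and did not pass (adjusted p = 0.326 in limma). Where the probes lie in the gene's transcripts was not analysed here.

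**Figure D3:**
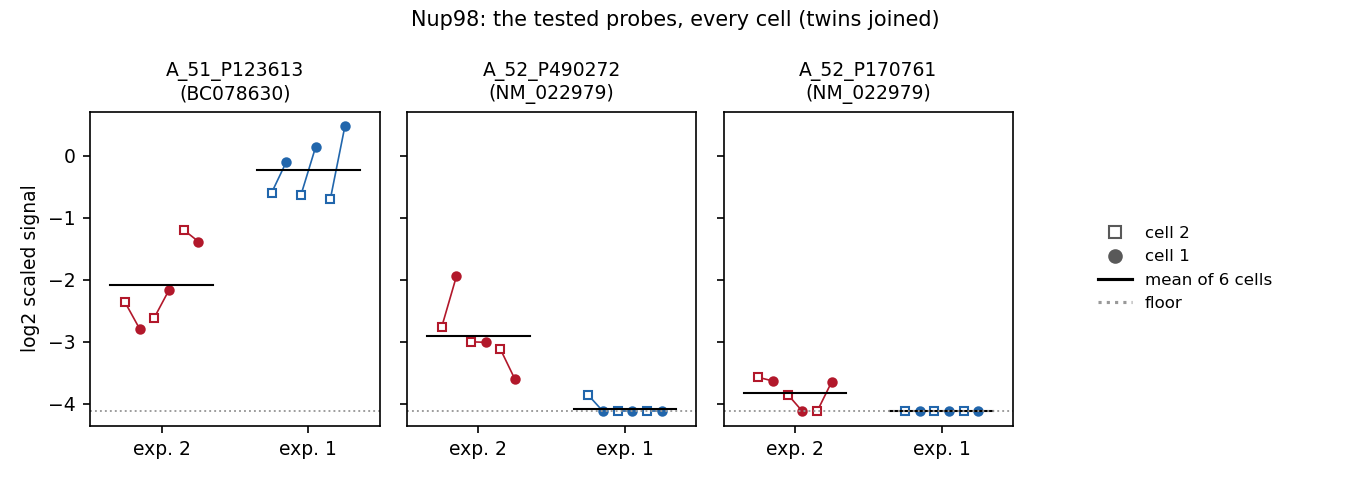
Levels (log2 scaled signal) of the 3 tested Nup98 probes in every cell; experiment 2 is left and experiment 1 right in each panel, twins are joined with cell 2 left of cell 1, bars are means of 6 cells and the dotted line is the floor at -4.12. The first probe is lower in all cells of experiment 2, the second is higher in all of them, and the third lies within 0.55 log2 units of the floor in every cell.

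The importin alphas read classical nuclear localisation signals, and all 5 on the array were measured in all 12 cells. Kpna2 was higher in experiment 2, and Kpna1, Kpna3, Kpna4 and Kpna6 did not pass. In experiment 2, Kpna2 stood at 2.75 and 2.79 in cells 2 and 1 of pair D, at 3.11 and 2.96 in the twins of pair G and at 2.17 and 2.69 in those of pair H, against 1.84 and 1.50 in cells 2 and 1 of pair D, 1.50 and 0.92 in the twins of pair I and 0.94 and 1.11 in those of pair L in experiment 1. The lowest cell of experiment 2, cell 2 of pair H, was above the highest of experiment 1, cell 2 of pair D. The mean was 2.75 ± 0.32 in experiment 2 and 1.30 ± 0.37 in experiment 1 (SD, n = 6 cells each), a difference of 1.45 ± 0.24 log2 units (SE; adjusted p = 0.00353 in limma), or 2.72-fold higher. A second Kpna2 probe differed by 1.11 log2 units in the same direction and did not pass (adjusted p = 0.300 in limma).

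In experiment 2, Kpna1 stood at -1.48 and -0.99 in cells 2 and 1 of pair D, at -1.36 and -1.63 in the twins of pair G and at -3.19 and -3.33 in those of pair H, against -1.79 and -3.16 in cells 2 and 1 of pair D, -4.12 and -4.12 in the twins of pair I and -3.68 and -3.86 in those of pair L in experiment 1. The cells of the experiments overlapped, and the difference of 1.46 ± 0.55 log2 units, as large as that of Kpna2, did not pass (adjusted p = 0.149 in limma). It passed without cell 2 of pair D of experiment 1 (adjusted p = 0.0493), and when the fit held only probes measured on all arrays (adjusted p = 0.0486). Of all probes, 6.55% passed without that cell and 22.8% in the restricted fit, against 8.1% as first given. In experiment 2, Kpna3 stood at 1.88 and 2.04 in cells 2 and 1 of pair D, at 1.28 and 1.40 in the twins of pair G and at 2.19 and 1.99 in those of pair H, against 1.00 and -0.24 in cells 2 and 1 of pair D, 0.78 and 0.51 in the twins of pair I and 1.68 and 1.39 in those of pair L in experiment 1. The groups overlapped, and the difference of 0.94 ± 0.35 did not pass (adjusted p = 0.144 in limma), while other Kpna3 probes differed by 0.18 and -0.46. In experiment 2, Kpna4 stood at -2.47 and -1.45 in cells 2 and 1 of pair D, at -3.19 and -3.95 in the twins of pair G and at -4.12 and -3.28 in those of pair H, against -2.32 and -2.62 in cells 2 and 1 of pair D, -2.91 and -2.22 in the twins of pair I and -1.82 and -3.80 in those of pair L in experiment 1. In experiment 2, Kpna6 stood at 1.17 and 0.54 in cells 2 and 1 of pair D, at 0.91 and 0.26 in the twins of pair G and at 0.52 and 0.42 in those of pair H, against 0.51 and 0.74 in cells 2 and 1 of pair D, -0.042 and 0.38 in the twins of pair I and 0.98 and -0.072 in those of pair L in experiment 1. Both overlapped between experiments, with differences of -0.46 ± 0.57 for Kpna4 and 0.22 ± 0.29 for Kpna6 (adjusted p = 0.680 and 0.701 in limma). A second tested Kpna4 probe differed by 0.052 and did not pass.

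**Figure D4:**
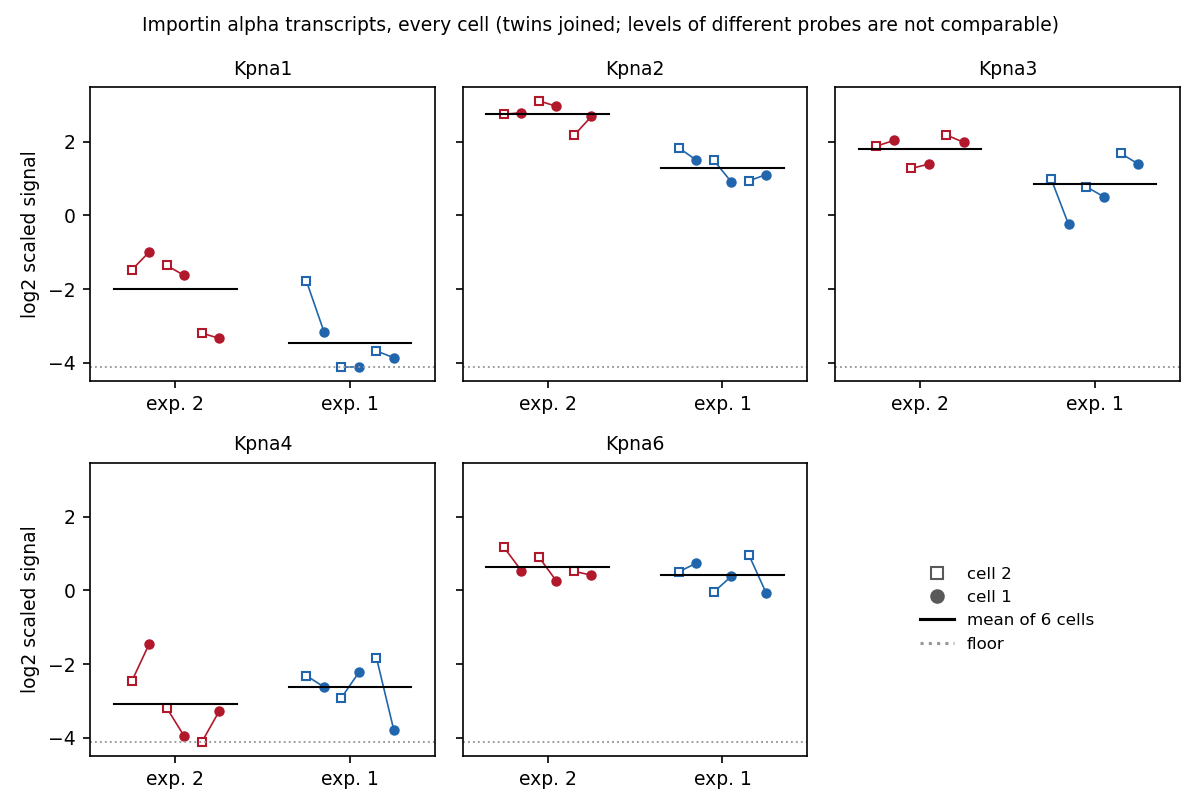
Levels (log2 scaled signal) of the 5 importin alpha genes in every cell; experiment 2 is left and experiment 1 right in each panel, twins are joined with cell 2 left of cell 1, bars are means of 6 cells and the dotted line is the floor at -4.12. The groups are apart for Kpna2 and overlap for the others, and in Kpna1 the twins of pair H stand below the other cells of experiment 2.

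Kpnb1, the importin beta that carries importin alpha and many cargoes of its own, did not pass. In experiment 2, Kpnb1 stood at -2.01 and -2.16 in cells 2 and 1 of pair D, at -2.71 and -3.35 in the twins of pair G and at -2.67 and -2.45 in those of pair H, against -2.62 and -3.01 in cells 2 and 1 of pair D, -3.48 and -3.88 in the twins of pair I and -2.48 and -3.45 in those of pair L in experiment 1. The groups overlapped, with a difference of 0.59 ± 0.33 log2 units (adjusted p = 0.378 in limma). A second Kpnb1 probe differed by -0.44, and normexp background correction gave -0.040 for the first, so no direction is given for this gene.

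Of the other importins, Ipo7 was higher and Ipo13 lower in experiment 2. Ipo7 imports ribosomal proteins and, with Kpnb1, linker histone. In experiment 2, Ipo7 stood at -1.39 and -1.54 in cells 2 and 1 of pair D, at -0.20 and -1.34 in the twins of pair G and at -2.79 and -1.63 in those of pair H, against -2.87 and -3.82 in cells 2 and 1 of pair D, -4.12 and -3.14 in the twins of pair I and -4.12 and -4.12 in those of pair L in experiment 1. The groups did not overlap, with a gap of 0.088 log2 units between cell 2 of pair H in experiment 2 and cell 2 of pair D in experiment 1. The mean was -1.48 ± 0.83 in experiment 2 and -3.70 ± 0.56 in experiment 1 (SD, n = 6 cells each), a difference of 2.22 ± 0.47 log2 units (SE; adjusted p = 0.0133 in limma), or 4.66-fold higher. With normexp the difference was 0.99 and did not pass (adjusted p = 0.272 in limma). Ipo13 works both ways, importing Mago and its partner and exporting the initiation factor eIF1A. In experiment 2, Ipo13 stood at -1.05 and -1.58 in cells 2 and 1 of pair D, at -0.83 and -2.45 in the twins of pair G and at -2.36 and -2.09 in those of pair H, against 1.01 and 0.27 in cells 2 and 1 of pair D, 0.31 and -0.39 in the twins of pair I and -0.26 and 0.48 in those of pair L in experiment 1. The groups did not overlap. The mean was -1.72 ± 0.68 in experiment 2 and 0.24 ± 0.51 in experiment 1 (SD, n = 6 cells each), a difference of -1.96 ± 0.43 log2 units (SE; adjusted p = 0.0156 in limma), or 3.89-fold lower. Without cell 1 of pair L in experiment 1, neither Ipo7 nor Ipo13 passed (adjusted p = 0.0522 and 0.0643 in limma).

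The remaining importin beta relatives did not pass. Ipo8, the closest relative of Ipo7, differed by 0.76 log2 units by a probe whose accession the file describes as a partial sequence of another gene, Abcc10, and by 0.70 by a second Ipo8 probe. Tnpo1, which imports RNA-binding proteins with a proline-tyrosine signal, differed by -0.25 and its relative Tnpo2 by 0.40. Tnpo3, the importer of splicing factors rich in serine and arginine, differed by 0.68. Ipo4 differed by -0.27 and Ipo11 by -0.29.

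No exportin passed. Xpo1, the main exporter of proteins with a leucine-rich signal, came closest. In experiment 2, Xpo1 stood at -1.04 and -0.98 in cells 2 and 1 of pair D, at 0.00035 and -1.19 in the twins of pair G and at -1.73 and -1.26 in those of pair H, against -1.73 and -1.96 in cells 2 and 1 of pair D, -2.65 and -3.26 in the twins of pair I and -1.66 and -2.47 in those of pair L in experiment 1. The groups overlapped at their ends, where cell 2 of pair H was the lowest of experiment 2 and cell 2 of pair L the highest of experiment 1. The mean was -1.03 ± 0.57 in experiment 2 and -2.29 ± 0.62 in experiment 1 (SD, n = 6 cells each), and the difference of 1.26 ± 0.39 log2 units did not pass (adjusted p = 0.0773 in limma). It passed with quantile normalization (adjusted p = 0.0257), in a separate fit restricted to probes measured on all arrays (adjusted p = 0.0289), and without cell 2 of pair H of experiment 2 (adjusted p = 0.0487). Of all probes, 10.6% passed with quantile normalization and 22.8% in the restricted fit, against 8.1% as first given. Xpo7 differed by 0.74, Xpo4, an exporter of the factor eIF5A, by 0.57, and Xpo5, the exporter of microRNA precursors, by 0.03 log2 units. Other tested Xpo5 probes differed by 0.26, -0.14 and -0.079 and did not pass.

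The Ran cycle genes did not pass between experiments. In experiment 2, Ran stood at 2.10 and 2.57 in cells 2 and 1 of pair D, at 1.79 and 2.74 in the twins of pair G and at 2.08 and 2.46 in those of pair H, against 2.14 and 2.13 in cells 2 and 1 of pair D, 2.00 and 1.97 in the twins of pair I and 2.20 and 2.47 in those of pair L in experiment 1. The cells of the experiments overlapped, with a difference of 0.14 ± 0.23 log2 units (adjusted p = 0.759 in limma). In experiment 2, Rangap1 stood at -1.24 and -1.23 in cells 2 and 1 of pair D, at -1.03 and -4.12 in the twins of pair G and at -4.12 and -4.12 in those of pair H, against -2.34 and -3.70 in cells 2 and 1 of pair D, -1.49 and -2.83 in the twins of pair I and -2.59 and -3.95 in those of pair L in experiment 1. Rangap1 varied over nearly the whole range of its probe within experiment 2, and the difference of 0.17 ± 0.86 log2 units took the opposite sign under several alternatives.

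The calls between experiments depended on how the arrays were scaled and floored. When each array was scaled to all probes, 0 members passed limma at the adjusted threshold (8 at an unadjusted p under 0.05), with normexp background correction 1 did (Nup35), with a floor set per array 2 did (Nup133 and Nup35), and with a lower common floor 4 did (those 2, Nup98 and Ipo7). With the deposited values Nup98 and Ipo13 no longer passed (adjusted p = 0.0747 and 0.0695 in limma). The share of all probes that passed fell with these counts: it was 8.1% as first given, 1.04% with scaling to all probes, 2.56% with normexp, 2.2% with a floor per array and 3.57% with the lower floor, and it was 4.21% with the deposited values. The 7 genes kept the sign of their difference under all alternatives run, 21 or 22 for each gene. In the 12 that left out 1 cell the sign could not change, because the groups did not overlap. Other filters and blocks refitted the same values, so only the other scalings, background corrections and floors could have changed it.

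Promoter sequences are shown for 4 of the 7 genes, the 2 higher genes with the smallest adjusted p (Nup133 and Kpna2) and both lower genes (Nup98 and Ipo13). The letters before a transcript start of genes that moved in opposite directions can thus be read side by side. Each is the 250 bases before a RefSeq transcript start in assembly GRCm38.p6, 5′ to 3′ on the strand of the gene. Capitals mark matches, on either strand, to the CCAAT box (CCAAT), the GC box (GGGCGG) or the cyclic AMP response element (TGACGTCA).
Nup133: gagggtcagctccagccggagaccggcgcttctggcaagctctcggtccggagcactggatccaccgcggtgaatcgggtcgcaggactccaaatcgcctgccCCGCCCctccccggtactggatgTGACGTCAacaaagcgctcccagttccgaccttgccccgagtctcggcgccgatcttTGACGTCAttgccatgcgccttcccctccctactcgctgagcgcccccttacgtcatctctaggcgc
Kpna2: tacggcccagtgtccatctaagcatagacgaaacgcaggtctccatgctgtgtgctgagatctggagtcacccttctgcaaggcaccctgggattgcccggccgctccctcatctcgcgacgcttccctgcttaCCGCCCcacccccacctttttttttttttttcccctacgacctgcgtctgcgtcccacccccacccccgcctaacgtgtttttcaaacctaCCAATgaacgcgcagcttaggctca
Nup98: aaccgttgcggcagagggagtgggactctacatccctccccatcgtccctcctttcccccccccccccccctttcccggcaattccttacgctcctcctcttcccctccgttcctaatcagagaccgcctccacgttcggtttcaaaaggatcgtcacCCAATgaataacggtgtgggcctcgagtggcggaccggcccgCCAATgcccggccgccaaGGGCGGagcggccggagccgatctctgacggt
Ipo13: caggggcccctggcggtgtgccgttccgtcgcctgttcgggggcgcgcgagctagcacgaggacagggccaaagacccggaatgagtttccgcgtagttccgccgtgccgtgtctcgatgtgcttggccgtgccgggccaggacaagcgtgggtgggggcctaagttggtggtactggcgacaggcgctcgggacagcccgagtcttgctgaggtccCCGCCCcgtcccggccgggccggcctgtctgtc
Nup133 lies on the minus strand of chromosome 8 with its window at chr8:123949266-123949515, Kpna2 on the minus strand of chromosome 11 at chr11:106999526-106999775, Nup98 on the minus strand of chromosome 7 at chr7:102210167-102210416, and Ipo13 on the minus strand of chromosome 4 at chr4:117915000-117915249. The Nup133 window held 2 matches to the cyclic AMP response element and 1 GC box, and the Nup98 window 2 CCAAT boxes and 1 GC box. The Kpna2 window held 1 of each of these boxes and the Ipo13 window 1 GC box. Most of the Ipo13 window lies inside the annotated gene, which reaches base 117915222, before a transcript start within it. A match is only a run of letters and not a bound site.

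Windows were found for 33 of the 42 genes, 39 windows in all, and were set beside all 32817 windows of the table. The GC box was in 64.1% of member windows and 32.7% of all windows, and the CCAAT box in 46.2% of member windows and 33.8% of all. The core of the NRF1 motif (CGCATGCG), which reads the same on both strands, was in 5 member windows (12.8%), those of Nup107, Nup50, Nup62, Ran and Xpo5, against 1.54% of all windows. Nup107 had no tested probe, and none of the other 4 passed between experiments in limma, where 9.13% of all genes did. The ETS core (CCGGAAG) was in 17.9% of member windows and 6.90% of all windows, and the E-box (CACGTG) in 15.4% of member windows and 6.02% of all. The cyclic AMP response element was in 5.13% of member windows and 1.55% of all, and the YY1 motif (AAGATGG) in 5.13% of member windows and 4.49% of all. Some genes have more than 1 window, and no test was made. The 42 genes lie on 15 chromosomes, with at most 5 on one, chromosome 11, which carries Kpna2, Kpnb1, Nup85, Nup88 and Xpo1.

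Differences between embryos within an experiment did not pass for any of the 36 members by their representative probes (limma's moderated F over the 4 contrasts between embryos), with 4 of 36 at an unadjusted p under 0.05. Of all 11936 genes, 1.31% passed, and 3538 were at an unadjusted p under 0.05. Kpna1 had the smallest p of the members (unadjusted 0.00245, adjusted 0.0662). In experiment 2 its embryo means were -1.24 in pair D, -1.49 in pair G and -3.26 in pair H, and in experiment 1 they were -2.47 in pair D, -4.12 in pair I and -3.77 in pair L. Both twins of pair I stood at the floor, so no spread between them entered the fit. The twins of pair H stood together, at -3.19 and -3.33, below the other cells of experiment 2, which lay between -1.63 and -0.99, while the twins of pair D of experiment 1 were 1.37 log2 units apart. Kpna1 passed when any of 3 cells of experiment 1 was left out (cell 2 or cell 1 of pair D, adjusted p = 0.0464 and 0.0493, or cell 1 of pair L, 0.0390) and in experiment 2 alone (0.0480). Tnpo3 passed when cell 2 or cell 1 of pair L of experiment 1 was left out (0.0279 and 0.0388), and Nup37 and Xpo4 passed without cell 2 of pair G of experiment 2 (0.0471 and 0.0297). The share of all probes that passed moved too, from 1.4% with all cells to 0.671% and 0.192% without cell 2 or cell 1 of pair D of experiment 1, 11% and 23.2% without cell 2 or cell 1 of its pair L, 8.77% without cell 2 of pair G of experiment 2, and 4.7% in experiment 2 alone.

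Nup153 followed (unadjusted p = 0.0180, adjusted 0.114 in limma), with embryo means of -0.61, -1.33 and 0.03 in pairs D, G and H of experiment 2 and -1.42, -1.24 and -1.19 in pairs D, I and L of experiment 1. By this representative probe its embryos lay within 0.23 log2 units of each other in experiment 1 and 1.36 apart in experiment 2. Another Nup153 probe, also measured on all 12 arrays, had embryo means 0.81 apart in experiment 1 and 0.53 in experiment 2. Its unadjusted p was 0.611 in limma. Nup35 was next (unadjusted p = 0.0310, adjusted 0.139), with pair L the highest embryo of experiment 1 at -0.70 and pair I the lowest at -2.48, against 0.64 to 1.14 in the embryos of experiment 2. The Nup153 probe A_51_P455886 was the only member probe that passed (adjusted p = 0.046 in limma, 1 of 57 probes against 1.4% of all), and it stood at the floor in 10 of the 12 cells.

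Between the cells of an embryo, cell 2 and cell 1 did not differ for any member after adjustment, nor for any of the 16694 probes (limma with the embryo as a block, 737 probes and 2 members at an unadjusted p under 0.05). The smallest member p was that of Rangap1, for which cell 2 exceeded cell 1 by 1.19 ± 0.42 log2 units (unadjusted p = 0.0273, adjusted 0.674). The difference was 1.35, 1.34 and 1.35 in pairs D, I and L of experiment 1. In experiment 2 it was 3.1 in pair G, where cell 2 was at -1.03 and cell 1 at the floor, -0.02 in pair D and 0 in pair H, whose cells were both at the floor. Cell 2 was thus higher in 4 of 6 pairs. Xpo5 was higher in cell 2 by 0.59 ± 0.24 log2 units, also in 4 of 6 pairs (unadjusted p = 0.0493), and Kpnb1 by 0.39 ± 0.17 in 5 of 6 pairs (0.0545), both with an adjusted p of 0.674. Both Xpo5 twins of pair H in experiment 2 stood at the floor. The other tested probes differed by 0.38, -0.14 and -0.0065 for Xpo5, 0.20 for Kpnb1 and 0.0075 for Rangap1. By its representative probe, Kpnb1 took the opposite sign, -0.12, when arrays were scaled to all probes. The interaction of cell number with experiment passed for 0 of 36 members and 0 of 11936 genes (limma). At an unadjusted p under 0.05 were 3 of the 36 members and 660 of the 11936 genes. The 3 members were Ipo8, Nup62 and Nup98, with an unadjusted p of 0.0384, 0.0407 and 0.0414 in limma.

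The last comparison was how far the twins of an embryo differed, with no test. The SD within twin pairs had a median of 0.457 log2 units over the 36 members and 0.482 over all tested genes. Over genes measured on all 12 arrays it was 0.454 for 27 members and 0.491 for 4758 genes. Among these 27 members it was largest for Rangap1 (1.12), Tnpo3 (0.814) and Nup54 (0.810), and smallest for Nup214 (0.220), Kpna2 (0.254) and Nup88 (0.275). Kpna2, the importin alpha that passed between experiments, thus had one of the smallest twin SDs among them by its representative probe. Its values in twins were at most 0.58 log2 units apart by that probe. The second Kpna2 probe, also measured on all 12 arrays, had a twin SD of 0.819, with twins up to 1.78 apart.

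In experiment 2, Tnpo3 stood at 0.58 and 0.92 in cells 2 and 1 of pair D, at 0.22 and 0.16 in the twins of pair G and at -0.75 and -0.23 in those of pair H, against -0.019 and 0.32 in cells 2 and 1 of pair D, -0.84 and -0.50 in the twins of pair I and 0.29 and -2.42 in those of pair L in experiment 1. Its spread came mainly from pair L of experiment 1, whose cells were 2.71 log2 units apart, while the twins of the other 5 pairs were within 0.52 of each other. In experiment 2, Nup54 stood at -2.34 and -2.87 in cells 2 and 1 of pair D, at -3.93 and -1.96 in the twins of pair G and at -1.30 and -1.37 in those of pair H, against -0.64 and -1.30 in cells 2 and 1 of pair D, -3.14 and -2.60 in the twins of pair I and -3.35 and -1.63 in those of pair L in experiment 1. Here 2 pairs were far apart, pair G of experiment 2 and pair L of experiment 1. In contrast, the Nup214 twins were within 0.45 log2 units in all 6 pairs.

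**Figure D5:**
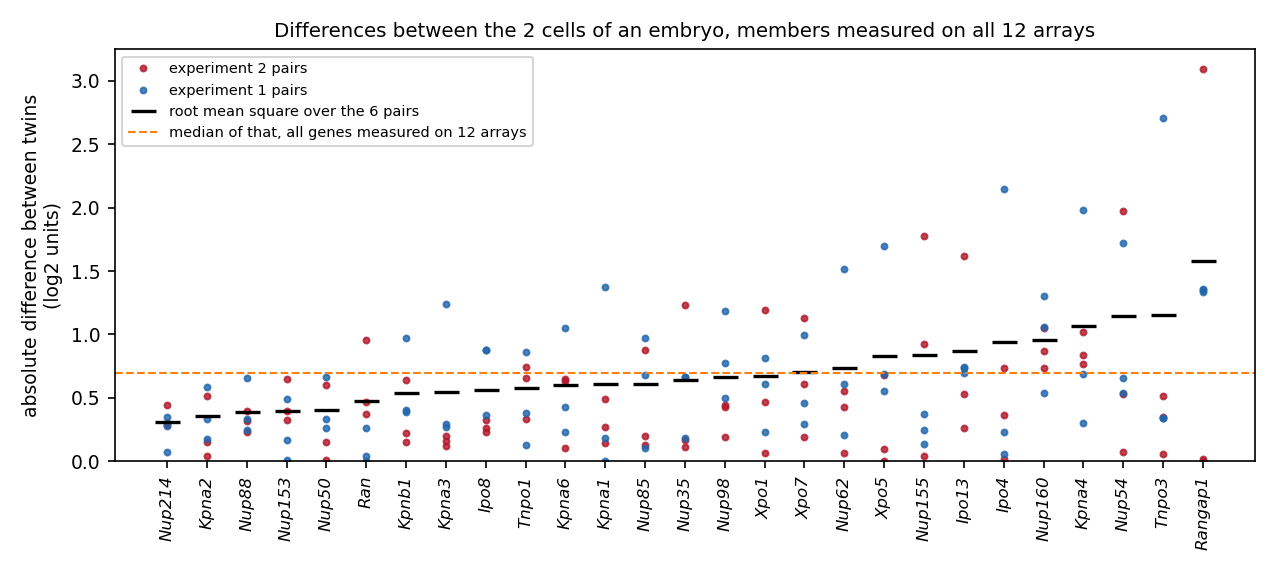
Absolute differences between the 2 cells of an embryo (log2 units) for the 27 member genes measured on all 12 arrays, 1 point per pair, ordered by their root mean square (black bars, 1.41 times the SD within pairs given in the text). The dashed line is the median of that quantity over all genes measured on 12 arrays; Nup214, Kpna2 and Nup88 are the lowest members, and Rangap1, Tnpo3 and Nup54 the highest.

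The spread between spots of 1 array was smaller than the twin SD for the probes where it could be measured. These probes, of Nup50 and Ipo8, are printed at 10 spots. Their SD between spots was 0.0553 to 0.149 log2 units over the 12 arrays, and their twin SDs were 0.288 and 0.442. Other probes, such as those near the floor, are not covered. Spots on 1 array share the RNA, its amplification and the scan. This leaves out the error of amplifying the RNA of a single cell and the error between arrays, which cannot be told apart from the difference between twins.

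Other genes of the pathway were taken from lists. Of 11 tested pore proteins outside the naming rule, 1 was higher in experiment 2 and none lower, beside 4.28% of all tested genes higher and 4.85% lower. This was Ahctf1, which recruits the Y complex to chromatin (0.70 ± 0.54 in experiment 2 and -1.17 ± 0.30 in experiment 1, SD, n = 6 cells each; difference 1.87 ± 0.33, adjusted p = 0.00517 in limma). Of 10 tested Ran cycle and transport factors, 2 were higher and none lower. Snupn, the adaptor that imports spliceosomal ribonucleoproteins, differed by 1.93 ± 0.39 log2 units (adjusted p = 0.0109 in limma). Ranbp2, the main protein of the cytoplasmic filaments, differed by 2.04 ± 0.52 (adjusted p = 0.0339). Of 15 tested genes of mRNA export, Eny2 (1.52 ± 0.28, adjusted p = 0.00733) and Thoc7 (0.96 ± 0.26, adjusted p = 0.0420) were higher and none was lower. Of 10 tested genes of the lamina and of the bridges between nuclear envelope and cytoskeleton, none passed in limma. The median differences of these 4 lists were 0.23, -0.22, 0.06 and 0.43 log2 units, beside 0.19 over all genes.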

How the data were processed

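The authors deposited 1 scanner file per array, with the intensity of each spot as read by Agilent Feature Extraction 9.1.3.1 according to the headers. A deposited value table, also of intensity, holds the processed signals divided by 1 constant per array and was used as an alternative. Per the labels' protocols, poly(A) RNA of each cell was amplified by transcription in vitro before hybridisation. The labels name Cy3 for every array, but the signal of experiment 1 sits in Cy5.

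Outlier spots were left out, spots of a probe were averaged, and processed signals were divided by the array's 75th percentile (taken over 5858 probes detected above background everywhere), raised to the floor of 0.0574 and put on the log2 scale. Depth is not defined for arrays, and their number limits the precision. Testing covered the 16694 probes with signal well above background on 6 or more arrays, with limma 3.58.1 in R 4.3.3. The fits were experiment with the embryo as a random block, a moderated F over 4 embryo contrasts within experiments, and cell 2 minus cell 1 with the embryo as a fixed block. Cell number by experiment was an interaction term. Benjamini-Hochberg adjustment ran over all tested probes, with a threshold of 0.05. Tests were tried on simulated data.

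The members and the gene lists were chosen with earlier results of these data known. Given with every cell were the importin alphas, the genes with the smallest p of each comparison, those with the largest and smallest twin SDs among members measured on all arrays, and Ran, Rangap1, Kpnb1 and Xpo1. Gene names are those of the array files, and 64 of the 93 member probes matched RefSeq by accession with no disagreement. Alternatives were other scalings, background corrections, floors, filters, probe rules, blocks and the deposited values, and leaving out each cell in turn.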

Additional observations from a re-analysis of the deposited data

How the results depend on the processing

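The number of members that passed between experiments was 7. It was 0 with the 75th percentile taken over all probes, 1 with normexp background correction, 4 with a lower common floor (3 higher and 1 lower in experiment 2) and 2 with a floor per array (2 higher). Quantile normalization gave 9, the deposited values 5 (5 higher and 0 lower, against 5 and 2), and leaving out 1 cell 5 to 8. A replicate block for the cell number left it at 7, all 7 shared, and with slide as the random block also 7. Between experiments, 8.1% of all probes passed as first given, against 10.6% with quantile normalization and 4.77 to 9.35% when 1 cell was left out. The median difference of all tested probes, 0.19, became 0.0020 with the 75th percentile of all probes, 0.015 with quantile normalization and -0.76 with normexp. The number of members that passed between embryos was 0. It was 4 with normexp, 2 with a floor per array, 1 without the filter on dim probes, 1 in experiment 2 alone, 1 when any probe of a gene could count, and 0 to 2 when 1 cell was left out (0 with the replicate block). Of all probes, 1.4% passed between embryos, against 40.1% with normexp, 26.1% with a floor per array and 6.7% without the filter. Between cell 2 and cell 1 it was 0 under every alternative run in limma. The median twin SD, 0.457, was 0.656 with the 75th percentile of all probes and 0.437 to 0.489 when 1 cell was left out.

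The difference of Rangap1 between experiments, 0.17, was -0.11 with the 75th percentile of all probes, -0.52 with normexp, -0.051 with either other floor, and -0.24 to 0.56 when 1 cell was left out. That of Nup214, -0.57, was 0.056 with quantile normalization, and that of Kpnb1, 0.59, was -0.040 with normexp. The cell 2 minus cell 1 difference of Kpnb1, 0.39, was -0.12 with the 75th percentile of all probes. The cause of these changes was not tested. The comparison of Kpna7 with other importins was not run, since no probe was matched to it. Signal over background limits Nup133, Ipo7, Kpna1 and the Nup98 probe A_52_P490272, which stood near the floor in several cells of experiment 1.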
